A study of Homo sapiens with 15 samples.

Results

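The 10 genes described here encode cell surface proteins that are used to sort cardiac progenitors and cardiomyocytes: the receptor tyrosine kinases PDGFRA, PDGFRB, KDR, KIT and ROR2, the chemokine receptor CXCR4, the adhesion molecules NCAM1, ALCAM and VCAM1, and the signal regulatory protein SIRPA. They were chosen by name, with earlier results of these data known, and all 10 were found among the 48777 genes listed in the count and TPM tables. H1, an established human embryonic stem cell line, was grown on a coating of the recombinant laminins LN-521 and LN-221. By the treatment protocol and the study's methods the cells received CHIR99021, which activates Wnt signalling, from day 4 to day 5, and IWP2, which blocks the secretion of Wnt proteins, from day 7 to day 9. The growth protocol in the labels counts days otherwise and places CHIR99021 on days 1 and 3 and IWP2 on day 5, so the time from each agent to a sampled day depends on which text is right. Bulk RNA was sequenced on days 0, 4, 9, 11 and 20, in 15 libraries, 3 biological replicates for each day. All libraries carry the same laminin treatment in their labels, but a deposited sample table lists LN-521 alone for day 0, and if that holds, a change of laminin and a change of day cannot be told apart in comparisons with day 0. By their titles, 2 of the 3 day 20 libraries (plate 2 and plate 2_3) carry the plate number 2. Per the study's methods, cells of day 11 are the committed cardiac progenitors (CCPs).

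In the forming heart, mesoderm that leaves the primitive streak carries the platelet-derived growth factor receptor PDGFRA and the vascular endothelial growth factor receptor KDR, and cells that hold both are a common sorted source of cardiac progenitors. KIT is the receptor of stem cell factor, CXCR4 is the receptor of the chemokine CXCL12, and ROR2 is a receptor of WNT5A. SIRPA and VCAM1 mark human cardiomyocytes made from pluripotent cells, and NCAM1 and ALCAM are immunoglobulin-type adhesion molecules of early mesoderm, neural tissue and heart muscle. In bulk RNA a lower level can come from fewer cells of a type or from less RNA per cell, and these cannot be told apart.

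Levels are given as TPM, a transcript abundance that corrects for gene length and is a share of the total of its library. Very abundant genes therefore lower the TPM of all others in a library, and comparisons between libraries carry that limit. Changes are edgeR log2 fold changes from counts, with a standard error (SE) and a Benjamini-Hochberg adjusted p-value taken over every gene tested, at a threshold of 0.05. Library totals lay between 11990302 and 33469703 counts. The library of day 20 named plate 2_3 stood apart: its RNA integrity number was 6.1 against 8.8 to 10 elsewhere, it listed 48230 genes with reads, and 174 protein-coding genes chosen for having at most 2 reads in all on the earlier days held a median of 10.95 reads per kb in it, against 0.678 in plate 6 and 0 in plate 2 of day 20. Reads at that rate would make up 43.5% of its CXCR4 counts, 33.8% of its KIT counts and 20.1% of its PDGFRB counts, but at most 5.13% of those of the other 7 genes. In replicate 3 of day 0 and plate 2 of day 9 a gene of 57 bases held 20.0% and 17.0% of all TPM, which lowers the TPM of every other gene there but not the counts test. The source labels call the cells of day 4 differentiated, but they carried the undifferentiated markers: the summed TPM of 8 such genes was 10977 to 11110 on day 4 against 9224 to 11574 on day 0, and TBXT, a primitive streak gene, was at most 0.511 TPM.

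PDGFRA, KIT and KDR are neighbours on chromosome 4 in band 4q12 (GRCh38, positions from GENCODE v44). PDGFRA spans chr4:54229280-54298245 on the plus strand, KIT spans chr4:54657267-54740783 on the plus strand, and KDR spans chr4:55078481-55125595 on the minus strand. The gaps are 359 kb between PDGFRA and KIT and 338 kb between KIT and KDR. The others lie apart: PDGFRB at chr5:150113839-150155872, CXCR4 at chr2:136114349-136119177 and ROR2 at chr9:91563091-91950228, all on the minus strand, and NCAM1 at chr11:112961275-113278436, ALCAM at chr3:105366909-105576900, SIRPA at chr20:1894167-1940592 and VCAM1 at chr1:100719742-100739045, all on the plus strand. Exons of PDGFRA overlap those of another gene on the same strand over 16.1% of their length, and exons of NCAM1 (7.89%) and SIRPA (4.20%) overlap genes on the opposite strand. Strand cannot tell apart the reads in the PDGFRA overlap, and a share of them may belong to the other gene. Whether the counting used strand is not given in the sources used here, so the same may hold for NCAM1 and SIRPA.

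Promoter windows from RefSeq (GRCh38.p14), from 250 bases before to 50 after a transcript start, were found for 8 of the 10 genes, with 11 windows in all. Those of the 4q12 genes are shown because these neighbours took different courses, and those of VCAM1 and CXCR4 because they alone held any of the motifs searched. The motifs, on either strand, were the TATA box TATAAA, the GATA site AGATAA, the T-box core AGGTGT and the TCF/LEF core CTTTGA, which 11.5%, 10.3%, 11.4% and 12.9% of 35116 promoter windows hold. Capitals mark the matches, and the first PDGFRA window, the second, and those of KIT, KDR, CXCR4 and VCAM1 lie at chr4:54229043-54229342, chr4:54233710-54234009, chr4:54657707-54658006, chr4:55125546-55125845, chr2:136118100-136118399 and chr1:100719492-100719791. Each is written 5′ to 3′ on the strand of its gene.
PDGFRA first start: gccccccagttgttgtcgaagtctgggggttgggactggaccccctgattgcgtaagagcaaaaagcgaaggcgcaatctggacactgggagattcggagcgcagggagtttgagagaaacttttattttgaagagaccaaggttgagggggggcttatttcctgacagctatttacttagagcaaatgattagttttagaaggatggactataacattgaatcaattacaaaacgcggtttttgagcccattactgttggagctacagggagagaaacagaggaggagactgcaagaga
PDGFRA second start: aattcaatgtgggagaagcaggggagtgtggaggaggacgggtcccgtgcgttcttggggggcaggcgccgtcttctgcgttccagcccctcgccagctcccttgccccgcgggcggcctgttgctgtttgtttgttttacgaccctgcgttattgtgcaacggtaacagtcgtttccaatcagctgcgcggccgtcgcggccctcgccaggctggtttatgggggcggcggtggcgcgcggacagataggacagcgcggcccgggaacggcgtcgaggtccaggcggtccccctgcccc
KIT: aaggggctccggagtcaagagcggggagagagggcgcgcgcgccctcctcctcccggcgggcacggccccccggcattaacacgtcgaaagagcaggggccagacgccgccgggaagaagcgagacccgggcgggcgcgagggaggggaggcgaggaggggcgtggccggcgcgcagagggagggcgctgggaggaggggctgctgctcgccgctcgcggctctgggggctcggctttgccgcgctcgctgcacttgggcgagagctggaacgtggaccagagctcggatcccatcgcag
KDR: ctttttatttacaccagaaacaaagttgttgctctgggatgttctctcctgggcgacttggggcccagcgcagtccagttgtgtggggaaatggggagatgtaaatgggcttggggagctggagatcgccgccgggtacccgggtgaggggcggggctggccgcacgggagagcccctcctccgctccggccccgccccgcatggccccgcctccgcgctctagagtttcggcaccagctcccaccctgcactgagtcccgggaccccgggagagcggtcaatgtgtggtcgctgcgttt
CXCR4: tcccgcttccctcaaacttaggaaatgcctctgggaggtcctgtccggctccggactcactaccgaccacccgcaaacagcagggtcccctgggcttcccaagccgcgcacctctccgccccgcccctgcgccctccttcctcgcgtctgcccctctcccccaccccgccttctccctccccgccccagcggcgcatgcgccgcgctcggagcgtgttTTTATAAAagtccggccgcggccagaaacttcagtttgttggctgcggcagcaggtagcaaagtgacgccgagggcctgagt
VCAM1: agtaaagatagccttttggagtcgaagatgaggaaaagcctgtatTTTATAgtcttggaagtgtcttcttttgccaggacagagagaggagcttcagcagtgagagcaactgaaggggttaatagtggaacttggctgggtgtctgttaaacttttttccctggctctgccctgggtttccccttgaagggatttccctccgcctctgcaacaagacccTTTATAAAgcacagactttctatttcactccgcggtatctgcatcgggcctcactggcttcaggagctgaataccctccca

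VCAM1 and CXCR4 each held a TATA box close to the start, at position -29 in VCAM1 and -30 in CXCR4, each overlapped by a match on the other strand. VCAM1 held another match at -205 on the minus strand, and another CXCR4 window, not shown, held CTTTGA at 44. A match is a description of the letters and says nothing about binding. The windows differed in CpG content. VCAM1 held 5 CpG dinucleotides, the first PDGFRA window 8 and PDGFRB 11, against a median of 14 over all windows. The second PDGFRA window held 32, KIT 38 and ROR2 42.

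**Figure D1:**
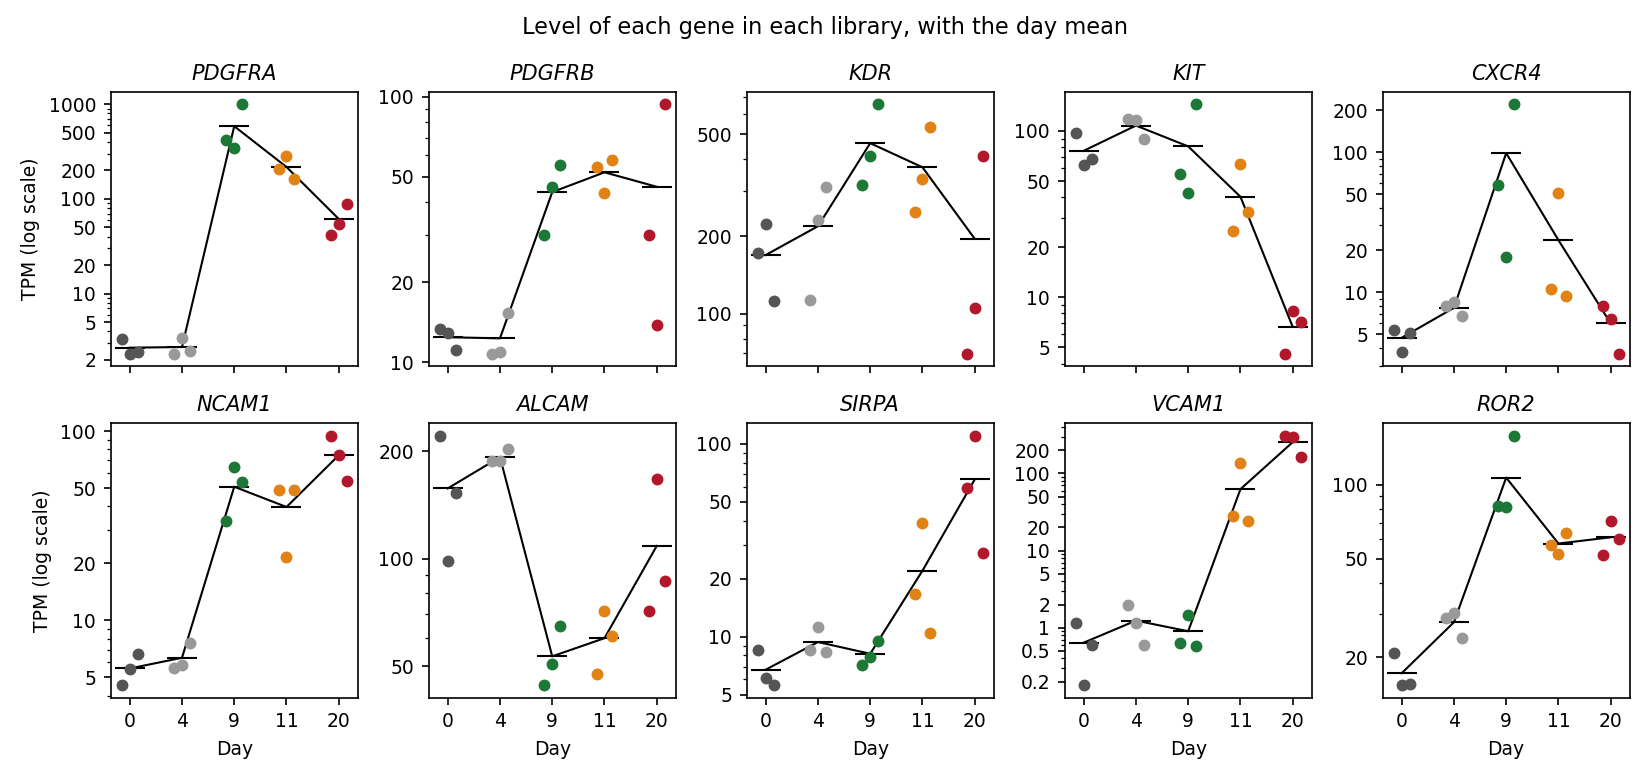
TPM (log scale) of each of the 10 genes on days 0, 4, 9, 11 and 20; each point is 1 library (3 per day) and the line joins the day means. PDGFRA was highest on day 9 (mean 585), VCAM1 and SIRPA on day 20 (means 255 and 65.4), and KIT was lowest on day 20 (mean 6.66).

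PDGFRA, the receptor of PDGF-A and related dimers, had the largest rise of the 10 genes from day 4 to day 9 and fell after it. It stood at 3.30, 2.31 and 2.44 TPM on day 0 and at 2.31, 3.40 and 2.48 TPM on day 4. On day 9 it reached 419 TPM in plate 2, 343 in plate 6 and 993 in the library without a plate number. It was at 209, 282 and 161 TPM in plates 2, 5 and 6 of day 11, and at 41.8, 54.4 and 87.9 TPM in plates 2, 2_3 and 6 of day 20. No library of day 9 overlapped with day 11, nor day 11 with day 20, and every later library lay far above days 0 and 4. The rise from day 4 to day 9 had a log2 fold change of 7.78 (SE 0.55, adjusted p = 3.43e-05). The step to day 11 was -1.50 (SE 0.44, adjusted p = 0.135) and the step to day 20 was -1.92 (SE 0.42, adjusted p = 0.0693), and neither passed the threshold. By DESeq2 the adjusted p of these steps was 0.00888 and 0.000420. On day 20 PDGFRA was still higher than on day 0 (log2 fold change 4.30, SE 0.41, adjusted p = 0.000538).

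PDGFRB, the receptor of PDGF-B and PDGF-D and a marker of mural and stromal cells, rose at the same step but less. It lay between 10.7 and 15.3 TPM in all 6 libraries of days 0 and 4. On day 9 it was at 30.0, 45.6 and 55.4 TPM and on day 11 at 54.2, 43.5 and 57.8 TPM. On day 20 the libraries spread from 13.9 TPM in plate 2_3 over 30.0 in plate 2 to 93.4 in plate 6. Days 9 and 11 overlapped with each other and with day 20, but not with the earlier days. The rise to day 9 had a log2 fold change of 1.85 (SE 0.23, adjusted p = 0.000443). Day 20 against day 0 gave 1.74 (SE 0.68, adjusted p = 0.0919), and without plate 2_3 it gave 2.21 with an adjusted p of 0.00779. The ratio of PDGFRA to PDGFRB in TPM went from 0.163 to 0.312 on day 4 to between 7.52 and 17.9 on day 9, and was back at 0.941 to 3.93 on day 20.

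KDR, also known as VEGFR2, was abundant from the start and its days overlapped. It was at 172, 224 and 112 TPM on day 0 and at 113, 231 and 313 TPM on day 4. On day 9 it was at 318, 413 and 653 TPM and on day 11 at 249.5, 334 and 532 TPM. On day 20 it was at 69.7 TPM in plate 2, 105 in plate 2_3 and 413 in plate 6. All day 9 libraries lay above those of day 4, by a small margin, and the log2 fold change of 1.10 (SE 0.39) had an adjusted p of 0.0503, just short of the threshold, which it met under 5 of 13 alternatives. Day 20 against day 0 was 0.06, and without plate 6 of day 20 it turned to -1.36 with an adjusted p of 0.0332. Of the day 20 libraries, plate 6 also held most mesenchymal marker RNA, at 24400 TPM over the list. The ratio of KDR to PDGFRA changed from 49.1 to 126 on day 4 to between 0.658 and 1.20 on day 9.

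KIT was expressed in undifferentiated cells and fell late. It stood at 97.7, 62.1 and 68.1 TPM on day 0 and 117, 117 and 89.4 TPM on day 4. On day 9 it was at 55.5 and 42.6 TPM in plates 2 and 6 but at 144 in the library without a plate number, so day 9 enclosed both earlier days. On day 11 it was at 24.9, 63.1 and 32.7 TPM, and on day 20 at 4.57, 8.25 and 7.14 TPM, below every other library. Day 20 against day 11 gave a log2 fold change of -2.74 (SE 0.40, adjusted p = 0.0255) and day 20 against day 0 gave -3.78 (SE 0.31, adjusted p = 0.000320). Leave-one-out fits were among those that lost the first of these calls. This was so without plate 2, 5 or 6 of day 11 (adjusted p 0.117, 0.0843 and 0.126) and without plate 2 of day 20 (0.0527). Over all genes these fits called 0, 0, 0 and 76 higher and 0, 1, 0 and 18 lower, against 239 and 93 in the reported fit. The second call held under all 12 alternatives. For KIT, day 9 against day 4 was -0.38 (SE 0.44, adjusted p = 0.510). Without the library that has no plate number it was -1.10 with an adjusted p of 0.00216.

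ROR2, a receptor of WNT5A, rose to day 9. It was at 20.8, 15.4 and 15.5 TPM on day 0 and at 28.8, 30.3 and 24.0 TPM on day 4, with no overlap. On day 9 it was at 81.8, 81.1 and 157 TPM. It lay at 57.0, 52.4 and 63.8 TPM on day 11, below every day 9 library, and at 52.1, 71.3 and 60.1 TPM on day 20, which overlapped with day 11. The step from day 9 to day 11 was -0.95 (SE 0.28, adjusted p = 0.143) and did not pass the threshold, while DESeq2 gave it an adjusted p of 0.0426. The rise to day 9 had a log2 fold change of 1.97 (SE 0.29, adjusted p = 0.00110). Day 4 against day 0 gave 0.62 (SE 0.16) but an adjusted p of 0.885. Day 20 lay above day 0 by 1.57 (SE 0.24, adjusted p = 0.00307), a call that was lost with no filter on low counts (adjusted p = 0.0574).

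CXCR4, which guides migrating mesoderm and endoderm cells towards CXCL12, was high on day 9 and varied most within that day. It was at 5.38, 3.73 and 5.10 TPM on day 0 and 7.93, 8.53 and 6.78 TPM on day 4. On day 9 it was at 58.7 TPM in plate 2, 17.9 in plate 6 and 219 in the library without a plate number. On day 11 it was at 50.7 TPM in plate 5 but at 10.5 and 9.48 TPM in plates 2 and 6, and on day 20 at 7.96, 6.42 and 3.63 TPM. Every day 9 library was above every day 4 library, with a log2 fold change of 3.73 (SE 0.88, adjusted p = 0.0111), which was lost with no filter on low counts (adjusted p = 0.0948). The later steps of -2.16 (SE 1.00, adjusted p = 0.336) and -2.09 (SE 0.70, adjusted p = 0.186) did not pass. By DESeq2 the adjusted p of the step from day 11 to day 20 was 0.0299. The CV of CXCR4 on day 9 was 108%, above that of 99.4% of the 14267 genes with a mean of at least 5 TPM, whose median CV was 15.7%.

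NCAM1, the homophilic neural cell adhesion molecule CD56, rose by day 9 and stayed up. It lay between 4.53 and 7.62 TPM in the 6 libraries of days 0 and 4. It was at 33.6, 64.8 and 54.0 TPM on day 9, 49.1, 21.5 and 48.5 TPM on day 11, and 94.3, 75.1 and 54.2 TPM on day 20. The 9 later libraries did not overlap with the earlier 6. The log2 fold change was 3.01 (SE 0.23, adjusted p = 3.26e-05) from day 4 to day 9 and 3.46 (SE 0.38, adjusted p = 0.000857) from day 0 to day 20. Plate 5 of day 11, the lowest of the later libraries, was the one with the most VCAM1 on that day.

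ALCAM, the activated leukocyte adhesion molecule CD166, was the only one of the 10 genes that fell from day 4 to day 9 past the threshold. It was at 220.6, 98.4 and 153 TPM on day 0 and at 188, 187 and 202 TPM on day 4. It dropped to 44.2, 50.7 and 64.9 TPM on day 9, was at 47.5, 71.4 and 60.8 TPM on day 11 and at 71.5, 167 and 86.7 TPM on day 20. Day 9 did not overlap with day 4, and the log2 fold change was -1.83 (SE 0.16, adjusted p = 6.08e-05). Day 20 against day 0 gave -0.85 (SE 0.37, adjusted p = 0.122), and without plate 2_3, which held the 167 TPM, it gave -1.10 with an adjusted p of 0.0414.

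SIRPA, the receptor of the surface protein CD47, and VCAM1, the ligand of the integrin of ITGA4 and ITGB1, came up last. SIRPA was at 8.51, 6.14 and 5.59 TPM on day 0, 8.58, 11.3 and 8.32 TPM on day 4 and 7.15, 7.87 and 9.45 TPM on day 9. It was at 16.7, 38.9 and 10.4 TPM in plates 2, 5 and 6 of day 11, all above day 9. On day 20 it was at 59.1, 110 and 27.2 TPM in plates 2, 2_3 and 6, which overlapped with day 11. Day 11 against day 9 gave a log2 fold change of 1.36 (SE 0.45, adjusted p = 0.176), and by DESeq2 its adjusted p was 0.0317. Day 20 against day 0 gave 2.94 (SE 0.41, adjusted p = 0.00220).

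VCAM1 was barely detected until day 9 and abundant afterwards. It was at 1.14, 0.179 and 0.597 TPM on day 0, 1.96, 1.17 and 0.590 TPM on day 4 and 0.636, 1.48 and 0.582 TPM on day 9, where it rested on 19 to 49 reads. It was at 28.3, 135 and 24.3 TPM in plates 2, 5 and 6 of day 11, and at 307, 294 and 163 TPM on day 20. Day 11 overlapped neither with day 9 nor with day 20. The log2 fold change to day 11 was 6.08 (SE 0.85, adjusted p = 0.0212). The call was lost without plate 2 of day 9 (adjusted p = 0.128), without the day 9 library that has no plate number (0.112) and with no filter on low counts (0.116). Over all genes these fits called 0, 20 and 553 higher and 0, 17 and 463 lower, against 288 and 207 in the reported fit. The step of VCAM1 from day 11 to day 20 was 1.89 (SE 0.66, adjusted p = 0.204), and DESeq2 gave it an adjusted p of 0.0400. Day 20 against day 0 gave 8.40 (SE 0.72, adjusted p = 0.000348), the largest change of the 10 genes in any of the 5 comparisons. On day 20 VCAM1 had the highest mean TPM of the 10 genes, 254.7, while on day 9 it had the lowest, 0.900.

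**Figure D2:**
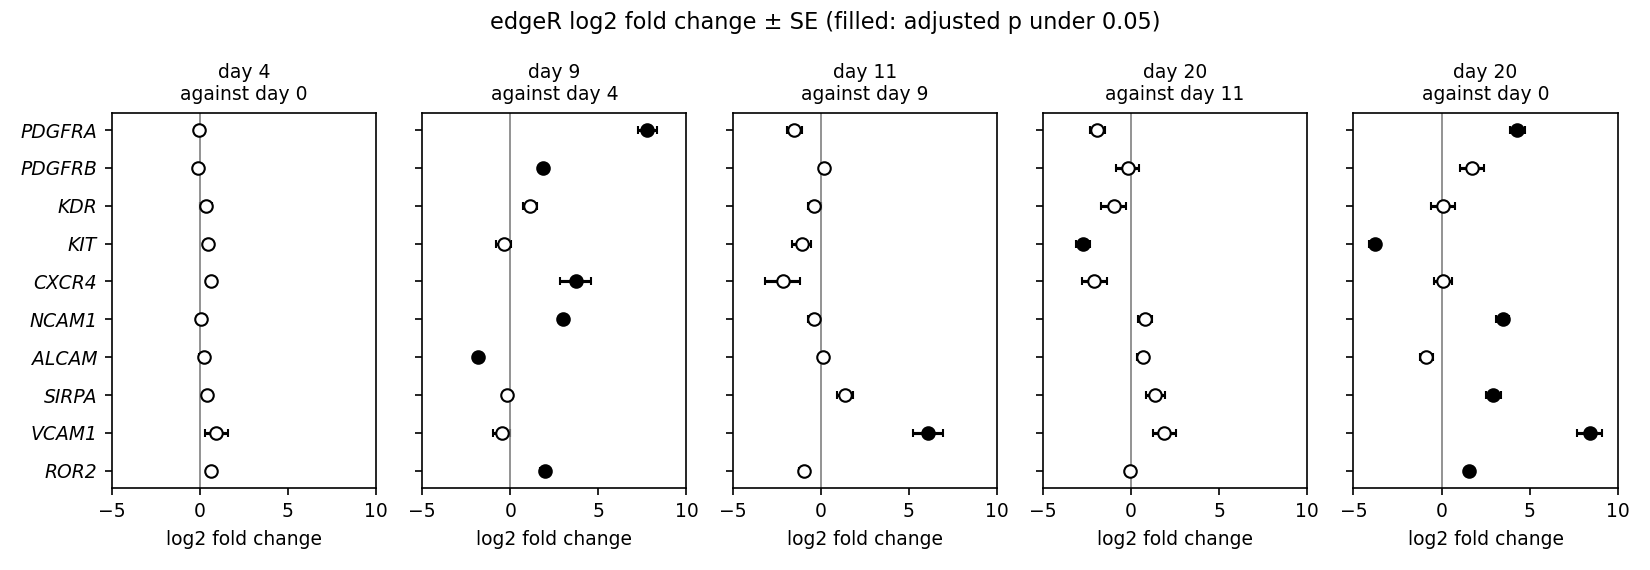
edgeR log2 fold change ± SE of the 10 genes (rows) in the 5 comparisons (panels), 3 libraries against 3; filled points have an adjusted p under 0.05. Points of day 4 against day 0 are all open, day 9 against day 4 has 6 filled points, and the next 2 panels have 1 each.

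Counted over the 10 genes, 0 passed the threshold from day 0 to day 4, where 0% of the 20964 genes tested were called in either direction by edgeR and also by DESeq2. At an unadjusted p under 0.05 there were 741 such genes by edgeR and 703 by DESeq2. From day 4 to day 9, 5 of the 10 were higher (24.3% of 21252 genes tested) and 1 was lower (24.7%). From day 9 to day 11, VCAM1 was higher (1.39% of 20679) and 0 were lower (1%). From day 11 to day 20, 0 were higher (1.12% of 21398) and KIT was lower (0.435%). From day 0 to day 20, 5 were higher (16.1% of 21988) and 1 was lower (11.3%). The 5 that had risen by day 9 were PDGFRA, PDGFRB, CXCR4, NCAM1 and ROR2, and the 5 higher on day 20 than on day 0 were PDGFRA, NCAM1, SIRPA, VCAM1 and ROR2. The median log2 fold change of the 10 genes was 1.47 from day 4 to day 9 and 1.65 from day 0 to day 20, where the median of all genes was 0.01 and 0.11. It was 0.37 (all genes -0.01) for day 4, -0.37 (all genes 0.00) for day 11 and -0.13 (all genes 0.07) for day 20 against the day before. The counts for day 11 against day 9 and for day 20 against day 11 were 4 each with DESeq2. Over all genes DESeq2 also called more at these steps. For day 11 it called 948 higher and 726 lower of 20679, against 288 and 207 by edgeR. For day 20 it called 1309 higher and 562 lower of 21398, against 239 and 93 by edgeR. The comparisons share libraries and are not independent.

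Together the 10 genes summed to 380 to 547 TPM on day 0 and to 1049 to 2351 TPM on day 9. Their make-up changed with the days. KDR, ALCAM and KIT gave 37.6%, 34.5% and 16.7% of the sum on day 0 (means of 3 libraries), PDGFRA and KDR 38.1% and 32.3% on day 9, and VCAM1 and KDR 30.1% and 20.8% on day 20. The KDR share of day 20 ran from 9.45% to 41.4%, highest in plate 6, and averaged 10.5% without that library. VCAM1 was at 0.000586 to 0.00432 of the PDGFRA level on day 9, 0.136 to 0.479 on day 11 and 1.86 to 7.34 on day 20. These ranges of the VCAM1 to PDGFRA ratio did not overlap between the 3 days.

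**Figure D3:**
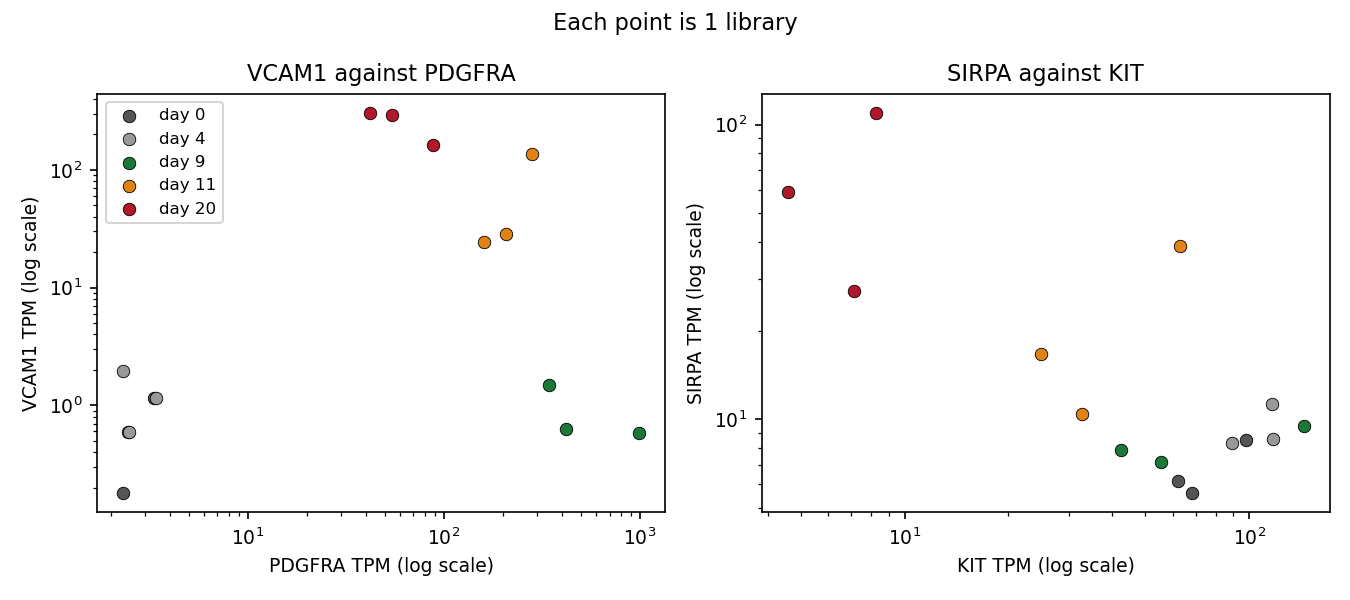
Left, VCAM1 against PDGFRA and right, SIRPA against KIT, in TPM on log axes; each point is 1 of the 15 libraries, coloured by day. Day 9 lies at high PDGFRA (343 to 993) and low VCAM1 (0.582 to 1.48), and day 20 at lower PDGFRA (41.8 to 87.9) and high VCAM1 (163 to 307).

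Within a day, several of the genes moved together between libraries. In the day 9 library without a plate number 8 of the 10 genes had their highest level of that day, all but NCAM1 and VCAM1. Of the 14267 genes with a mean of at least 5 TPM on day 9, 29.8% were highest in that library, 58.0% in plate 6 and 12.2% in plate 2. The summed co-receptor, modifier and relative lists were also highest in it, at 1737, 332 and 509 TPM. That library had a lower cardiomyocyte marker sum (438 TPM over 8 genes, against 686 in plate 2 and 1659 in plate 6). Most of the sum came from MYL7 (147 against 380 and 1179) and MYL4 (215 against 243 and 332). TNNT2 and ACTN2 were also lowest there, but NKX2-5 was highest (28.9 against 11.2 and 11.9). MYH6, MYH7 and TNNI1 lay between plates 2 and 6. The library without a plate number also held less HAND1 (248 against 340 and 556). It held more ISL1 (149 against 91.7 and 39.7), a transcription factor of the second heart field. In plate 5 of day 11, 6 of the 10 genes were highest, PDGFRA, KIT, CXCR4, ALCAM, SIRPA and VCAM1, where 37.4% of all 14833 genes at that level were highest in it. That library held 23174 TPM of cardiomyocyte markers against 7157 in plate 2 and 5342 in plate 6, and the fewest mesenchymal markers (1211 against 3380 and 7321). In plate 6 of day 20, PDGFRA, PDGFRB and KDR were highest and SIRPA, VCAM1, NCAM1 and CXCR4 lowest. Of the 18836 genes at that level on day 20, 21.6% were highest in plate 6, 23.5% in plate 2 and 54.9% in plate 2_3. The share of all genes lowest in plate 6 was not computed. Plate 6 held 24400 TPM of mesenchymal markers, against 3182 in plate 2 and 1211 in plate 2_3. COL3A1, a collagen gene, gave 17006 of these in plate 6. It also held 6321 TPM of cardiomyocyte markers, against 25013 in plate 2 and 25532 in plate 2_3. The part of these differences in the levels of the 10 genes was not tested.

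**Figure D4:**
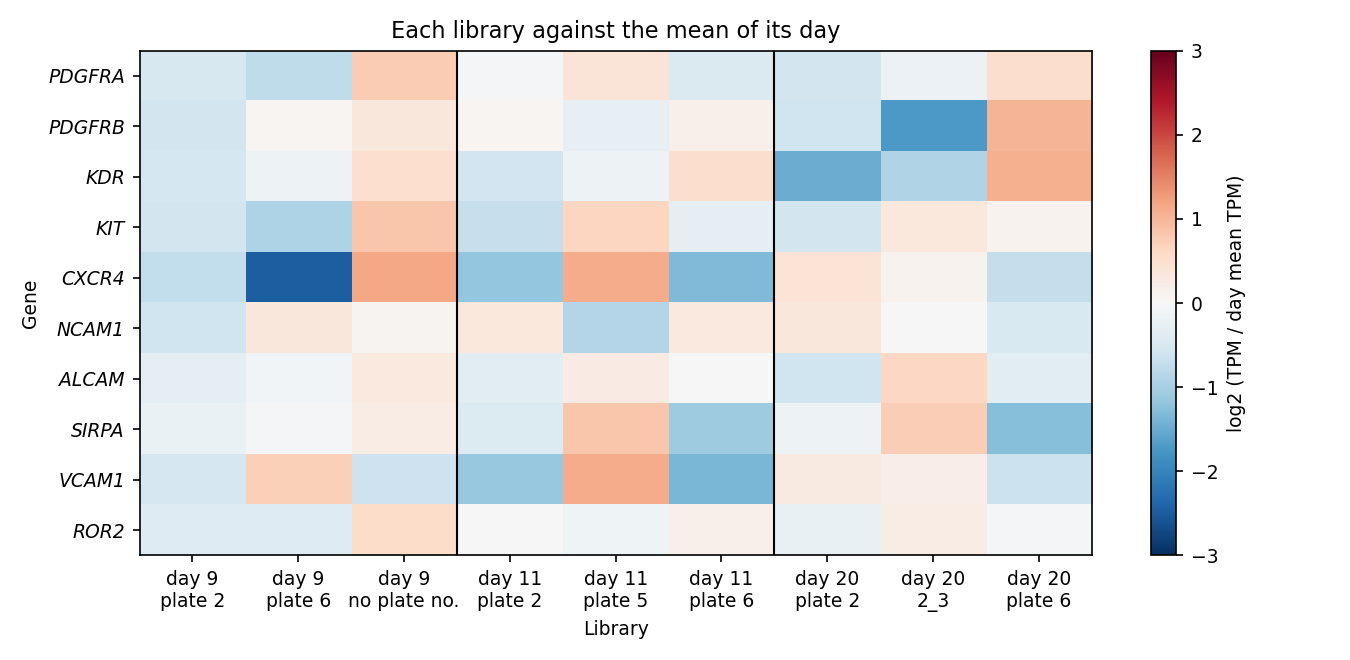
log2 of the TPM of each gene (rows) in each library of days 9, 11 and 20 (columns, plate numbers as labelled) over the mean TPM of that day; red is above and blue below the mean. The day 9 library without a plate number, plate 5 of day 11 and plate 6 of day 20 each stand apart from the other libraries of their day for several genes.

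The marker lists also moved between days. Undifferentiated markers were lower for 7 of 8 genes from day 4 to day 9 (24.7% of all genes tested were lower). Their summed TPM went from 10977 to 11110 down to 2658 to 2980. Cardiomyocyte markers were higher for 7 of 8 genes from day 9 to day 11 (1.39% of all genes tested were higher). Their sum went from 438 to 1659 up to 5342 to 23174. Endothelial cells also carry KDR, and 4 of 8 endothelial genes were higher and 2 lower on day 9 than on day 4. Of all genes tested at that step, 24.3% were higher and 24.7% lower. PECAM1 rose by a log2 fold change of 1.90 (SE 0.38, adjusted p = 0.00338) and CDH5 by 3.85 (SE 0.51, adjusted p = 0.000449), from low levels. The defining genes PECAM1 and CDH5 were at most 1.20 and 3.13 TPM on day 9, and highest in plate 5 of day 11, at 12.7 and 52.5 TPM. The summed endothelial list was at 85.1 to 172 TPM on day 9 and 150 to 201 TPM on day 4, mostly from EGFL7, TEK and, in the day 9 library without a plate number, VWF at 66.4 TPM, and its part in the KDR level was not tested. Blood cells carry KIT and CXCR4, and the pan-leukocyte gene PTPRC was at most 0.0437 TPM on day 9 and listed at 0 on day 11, with a blood sum of 1.29 to 2.76 TPM on day 9. On day 11 the blood sum was 3.95, 16.5 and 1.11 TPM in plates 2, 5 and 6, of which CD34, also an endothelial gene, gave 2.27, 14.04 and 0.191. Plate 5 was the library with the most KIT and CXCR4 on that day, and the part of these cells was not tested. Endoderm carries CXCR4, and 4 of the 5 endoderm genes tested were higher on day 9 than on day 4 (24.3% of all genes tested). The sum over all 6 endoderm genes was 399 to 1070 TPM on day 9, against 3.73 to 10.1 on day 4. The sum was 471 TPM in plate 2, 1070 in plate 6 and 399 in the library without a plate number, where CXCR4 was at 58.7, 17.9 and 219. Most of the sum came from APOA1 (254, 783 and 198 TPM) and TTR (68.3, 198 and 65.1), both highest in plate 6. AFP and ALB, at most 3.54 and 0.325 TPM, were also highest there. FOXA2 (79.3, 55.4 and 84.4 TPM) and SOX17 (67.5, 30.0 and 49.5) were lowest in plate 6, as CXCR4 was. The part of endoderm in the CXCR4 level was not tested. The mural sum was 238 to 518 TPM on day 9, where PDGFRB rose, against 100 to 128 on day 4. RGS5 gave 194 TPM of it in plate 2, 323 in plate 6 and 110 in the library without a plate number. Of the 6 mural genes 4 were higher (24.3% of all genes tested) and 1 was lower (24.7%). The lower one was MCAM (log2 fold change -1.26, SE 0.17, adjusted p = 0.000434). CSPG4 was at -0.85 and was not called. The part of mural cells in the PDGFRB level was not tested. On day 20 the endoderm sum was 624 to 18373 TPM, against 668 to 1650 on day 11, with AFP, a fetal liver and yolk sac gene, at 13772, 516 and 14210 TPM in plates 2, 2_3 and 6. The mesenchymal sum was 1211 to 24400 TPM on day 20 and 1211 to 7321 on day 11. Of the endoderm and mesenchymal genes, 0 passed the threshold from day 11 to day 20, where 1.12% of all genes tested were higher and 0.435% lower. The part of endoderm and mesenchymal cells in the day 20 levels was not tested.

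Ligands of these receptors also changed. Of the 13 ligand genes 12 were tested from day 4 to day 9, with 6 higher and 3 lower, where 24.3% and 24.7% of all genes were called. WNT5A, the ligand of ROR2, rose from 3.51 to 4.19 TPM on day 4 to 60.2 to 81.2 TPM on day 9 (log2 fold change 4.20, SE 0.15, adjusted p = 9.26e-07). PGF, a ligand of the KDR relative FLT1, rose by 3.32 (SE 0.32) and PDGFB by 2.86 (SE 0.49). VEGFA, the main ligand of KDR, was chosen for mention after its values were seen: it went from 16.9, 17.3 and 20.1 TPM to 63.6, 87.1 and 86.9 TPM (2.15, SE 0.15, adjusted p = 1.47e-05). CXCL12, also chosen after its values were seen, fell from 42.2 to 52.5 TPM to between 12.4 and 20.2 TPM (-1.58, SE 0.16) while its receptor CXCR4 rose. From day 11 to day 20 PDGFD, a ligand of PDGFRB, rose from 8.19, 17.6 and 9.62 TPM to 207, 288 and 93.9 TPM (3.87, SE 0.46, adjusted p = 0.0173). It was the only ligand gene called at that step, and 0 were called from day 9 to day 11. Day 20 against day 0 had 8 ligand genes higher and 1 lower, where 16.1% and 11.3% of all genes were called.

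KITLG, the ligand of KIT, was uneven. It rose from 4.28 to 8.53 TPM on day 4 to 12.8, 75.4 and 9.43 TPM on day 9 (log2 fold change 2.29, SE 0.74, adjusted p = 0.0360), mostly in plate 6. On day 11 it was at 46.2 and 70.5 TPM in plates 2 and 6 and at 7.02 in plate 5. On days 4, 9 and 11 KIT was highest in the library with the least KITLG. On day 4 this was a near tie, with KIT at 117.2, 116.6 and 89.4 TPM in plates 1, 2 and 5. KITLG was at 4.28, 8.53 and 6.49 TPM there. On day 9 the library with the least KITLG had 144 TPM of KIT and 9.43 of KITLG, and on day 11 it had 63.1 and 7.02. This order was not seen on day 0, with KITLG at 7.52, 9.25 and 5.85 TPM and KIT at 97.7, 62.1 and 68.1, nor on day 20, with KITLG at 7.63, 19.2 and 14.3 TPM and KIT at 4.57, 8.25 and 7.14. No test was run on it.

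Of the 10 co-receptor genes 4 were higher and 3 lower from day 4 to day 9, when 24.3% of all genes tested were higher and 24.7% lower. FZD4, a Wnt receptor, rose from 11.5 to 19.6 TPM to 87.4 to 128 TPM (log2 fold change 2.69, SE 0.25) and fell to 36.8 to 42.1 TPM by day 20 (-1.81 against day 11, SE 0.29, adjusted p = 0.0309). NRP1, a co-receptor of KDR, was 3.38 higher on day 20 than on day 0 (SE 0.55, adjusted p = 0.00368), and FZD7 was 3.52 lower on the same scale (log2 fold change -3.52, SE 0.80). ITGA4, which pairs with ITGB1 to form the receptor of VCAM1, was named after its values were seen. It fell from 3.94 to 5.31 TPM on day 4 to 0.188 to 0.436 TPM on day 9 (-4.12, SE 0.34, adjusted p = 3.84e-05). On day 11, when VCAM1 rose, ITGA4 was at 0.101 to 0.244 TPM. On day 20 it was at 0.469 and 0.369 TPM in plates 2 and 6 and at 4.16 TPM in plate 2_3, the library with reads on silent genes. ITGB1 was at 270 to 674 TPM in all 15 libraries.

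Of the 6 modifier genes, 2 were higher and 0 lower from day 4 to day 9, against the same 24.3% and 24.7%. ST8SIA2 encodes a polysialyltransferase that acts on NCAM1. It went from a mean of 2.38 TPM on day 4 to 22.3, 15.8 and 50.1 TPM on day 9 (log2 fold change 3.67, SE 0.46, adjusted p = 0.000503). It fell again to 4.94, 4.37 and 4.17 TPM on day 11 (-2.78, SE 0.44, adjusted p = 0.0293), while NCAM1 stayed at 21.5 to 49.1 TPM. CD47, the ligand of SIRPA, was at 17.8 to 22.2 TPM on day 0, 20.1 to 21.5 on day 4 and 12.3 to 17.9 on day 9. It was at 21.7 to 30.7 TPM on day 11 and 26.7 to 54.1 TPM on day 20. Day 9 was lower than day 4 (log2 fold change -0.53, SE 0.13, adjusted p = 0.0101). The steps to day 11 (0.83, SE 0.18, adjusted p = 0.0571) and to day 20 (0.44, SE 0.35, adjusted p = 0.600) did not pass.

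Of 16 relatives of the 10 genes, 12 were tested from day 4 to day 9, with 0 higher and 7 lower (24.7% of all genes tested were lower), and their median log2 fold change was -1.41, against 1.47 for the 10 genes and 0.01 for all genes. FLT1 and FLT4, the other VEGF receptors, fell from 72.7 to 124 TPM to 26.4 to 45.7 TPM (-1.58, SE 0.29) and from 15.1 to 19.5 TPM to 2.52 to 4.17 TPM (-2.47, SE 0.23). L1CAM fell by 1.92 (SE 0.29) and ICAM1 by 1.57 (SE 0.52) on the log2 scale. ROR1, the closest relative of ROR2, was at 149 to 179 TPM on day 0 and 25.5 to 70.1 TPM on day 20 (-2.20, SE 0.32, adjusted p = 0.00248). MCAM fell by 1.41 (SE 0.30) over the same span.

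Around the 4q12 receptors, 8 of 9 neighbouring genes were tested from day 4 to day 9, with 2 higher and 2 lower (24.3% and 24.7% of all genes tested). CHIC2, on the minus strand with its 5′ end 165 kb before that of PDGFRA, rose from 16.8 to 21.6 TPM to 61.4 to 92.6 TPM (log2 fold change 2.06, SE 0.21, adjusted p = 0.000125), and FIP1L1 rose by 0.65 (SE 0.10). TMEM165 fell by 1.16 (SE 0.15) and NMU by 1.38 (SE 0.26). KIT and KDR, on the other side of PDGFRA, were at -0.38 and 1.10 and were not called. From day 11 to day 20, 0 of these 8 neighbours passed. By day 20 NMU had fallen by 4.82 (SE 0.87), SRD5A3 by 1.25 (SE 0.30) and TMEM165 by 1.07 (SE 0.26) against day 0, and the other 5 tested did not pass.

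**Figure D5:**
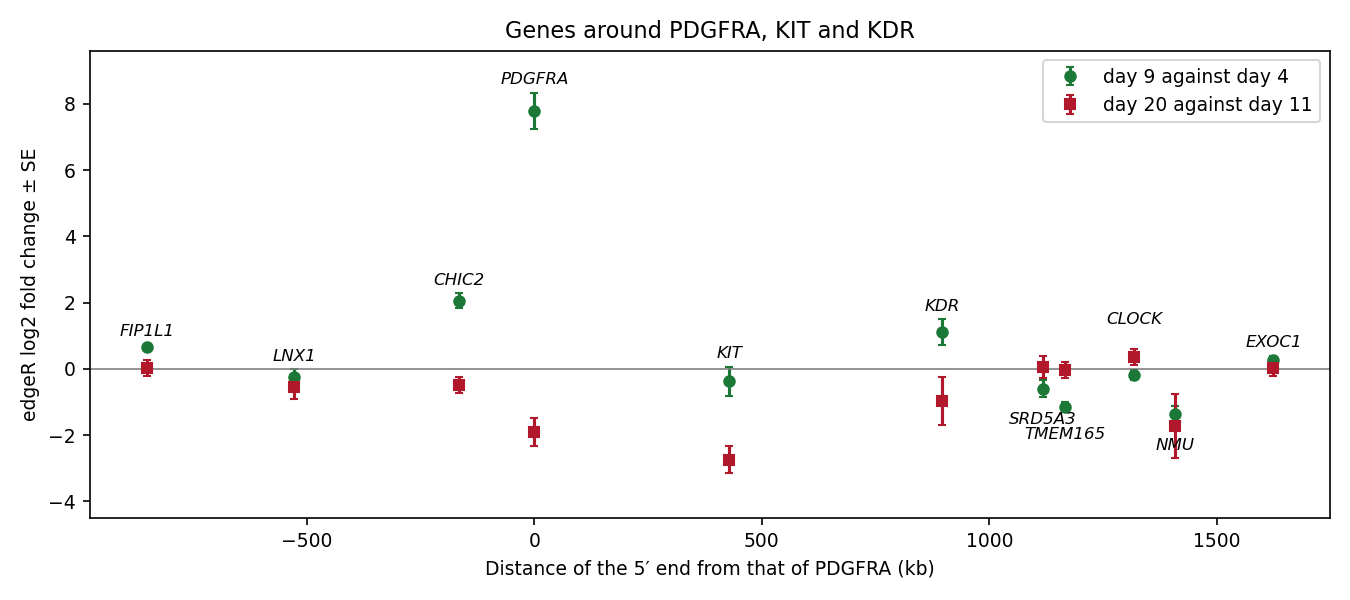
edgeR log2 fold change ± SE of the genes around PDGFRA, KIT and KDR against the distance of each gene's 5′ end from that of PDGFRA, in kb; circles are day 9 against day 4 and squares day 20 against day 11. PDGFRA (7.78) and CHIC2 (2.06) stand highest for day 9, and KIT (-2.74) stands lowest for day 20.

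The genes whose profile over the 15 libraries was most like that of each receptor were found by Pearson's r of log2 CPM (library-scaled counts) among 13145 protein-coding genes. The libraries fall into 5 days, so a high r mostly says that the day means follow the same course, and the values are a description. For PDGFRA they were GATA3 (r = 0.99), HAS2 (0.99) and CBLN2 (0.99). HAS2, a hyaluronan synthase, had mean TPM of 5.78 on day 4, 888 on day 9, 567 on day 11 and 104 on day 20. For VCAM1 they were MYBPC3, MYOM1 and MYZAP (0.99 each), the first of which encodes a sarcomeric myosin-binding protein and had mean TPM of 0.847 on day 9, 179 on day 11 and 807 on day 20. For SIRPA they were SH3BGR (0.98), FBXL22 (0.97) and ACOT11 (0.97), and for NCAM1 ARPIN, USP3 and HAND2 (0.97 each), the last a cardiac transcription factor.

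For ROR2 the 3 genes were CPLANE1 (0.96), JCAD (0.95) and ISL1 (0.95). ISL1 had mean TPM of 0.753 on day 4, 93.4 on day 9, 34.6 on day 11 and 11.3 on day 20. For CXCR4 they were DPY19L1 (0.95), KDM7A (0.94) and PGA5 (0.92), and for PDGFRB EVA1B and DENND1A (0.97 each). For KDR they were POGLUT3 (0.94), DSC2 (0.93) and CERS6 (0.92). For KIT they were CLCN2, SORL1 and UGT3A2 (0.96 each). For ALCAM they were HES3, ACOXL and NEFL (0.96 each), and HES3 had mean TPM of 137 on day 4 and 0.909 on day 9. Without plate 2_3 of day 20 these values of r lay between 0.886 and 0.995.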

How the data were processed

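Bulk RNA-seq of 15 libraries of H1 cells was analysed from the deposited tables. Single-cell libraries were not analysed here. Days follow the labels; the libraries labelled day 9 appear as day 7 in the study's methods. Per the labels and the study's methods, the authors made stranded total RNA libraries (paired reads of 150 bases), aligned them with STAR 2.5.2b to GRCh38 (Ensembl release 79), counted reads with featureCounts 1.5.1 and removed ribosomal and mitochondrial genes. The authors deposited raw counts per gene and TPM computed from them. A deposited sample table gives a score for RNA integrity, the fraction of reads mapped uniquely, and the sequencing lane. The labels name biological replicates but say of the cultures only that wells were in triplicate, so p-values measure the spread between these samples, which may be partly technical.

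For each pair of days, the counts of its 6 libraries were filtered by filterByExpr with the days as groups. A gene was kept if at least 3 libraries reached the CPM that 10 reads give at the median library size. It also needed at least 15 reads in total. The counts were then scaled by TMM and tested with the robust quasi-likelihood test of edgeR 4.0.16 (R 4.3.3). P-values are two-sided and were adjusted across every gene in the fit (Benjamini-Hochberg). The SE is the log2 fold change over the square root of F. Means of TPM are over 3 libraries. Alternatives were DESeq2 1.42.0, other scalings, no filter, all libraries in one fit, limma 3.58.1 on log2(TPM + 1), plate or lane as a block, each replicate left out and TPM without the short gene. The scripts were tested on simulated data.

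The 10 genes and all lists were chosen with earlier results of these data known. Of the ligands, co-receptors and modifiers, genes were eligible to be named if they passed the threshold and averaged at least 5 TPM on the higher day, at most 6 per comparison by size, and of the relatives and neighbours at most 4. Likeness was taken among protein-coding genes that averaged 5 CPM or more on at least 1 day, and a gene that this rule names for PDGFRB is not reported here. Symbols and positions come from GENCODE v44. Figures were drawn with matplotlib 3.10.9.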

Additional observations from a re-analysis of the deposited data

How the results depend on the processing

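Of 650 recomputed log2 fold changes of the 10 genes, 591 kept their direction and side of the threshold. Of the others, 24 passed it anew, 10 lost it and 25 changed sign. Those that changed sign were counted apart, whether or not they passed. All 200 recomputed day means stayed within 1 SD. Leaving out 1 of 3 libraries cannot move a mean by that much, so only the means without the short gene could have failed. The count of genes that passed was within 1.5 times the reported one under every alternative for the comparisons of day 4 with day 0, of day 9 with day 4 and of day 20 with day 0. For day 11 against day 9 it was 1, and became 4 with DESeq2, 0 with no filter on low counts, 4 with plate as a replicate block and 0 to 1 with a replicate left out. For day 20 against day 11 it was 1, and became 4 with DESeq2, 3 with all 15 libraries, 2 with limma, 0 with plate as a replicate block and 0 to 2 with a replicate left out. Over all genes DESeq2 called 948 higher and 726 lower for day 11 against day 9, and 1309 and 562 for day 20 against day 11. Fits with a replicate left out called 0 to 287 higher and 0 to 286 lower for day 11 against day 9. For day 20 against day 11 they called 0 to 355 higher and 0 to 155 lower. The cause was not tested.

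Plates 2 and 6 each had libraries on both days, but the labels do not say that a plate number marks a shared culture, and after removal of the day means same-plate libraries correlated across genes at 0.16 and 0.39 (day 11 against day 9) and at -0.19, 0.01 and 0.39 (day 20 against day 11, plate 2, plate 2_3 and plate 6), so pairing was not established. Over all genes the replicate block moved the calls from 288 higher and 207 lower to 1171 and 800 for day 11, and from 239 and 93 to 2 and 1 for day 20. With the block PDGFRA was -1.08 (adjusted p = 0.000738), PDGFRB 0.56 (0.0306) and SIRPA 0.78 (0.0294) on day 11 against day 9, and KIT -2.20 (0.0790) on day 20 against day 11.

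None of the values that changed sign had been called in the reported fit. For day 4 against day 0, PDGFRA was 0.016 with limma and -0.23 to 0.057 with a replicate left out, KDR -0.0096 to 0.62, NCAM1 -0.11 to 0.38 and ALCAM -0.047 to 0.42. VCAM1 was -0.96 to 0.023 for day 9 against day 4. For day 11 against day 9, NCAM1 was 0.029 with the replicate block and ALCAM -0.014 to 0.29 with a replicate left out. For day 20 against day 11, PDGFRB was -1.39 to 0.27, and ROR2 was 0.0061 with library size alone, 0.052 with upper-quartile scaling, 0.075 with limma and -0.19 to 0.018 with a replicate left out. For day 20 against day 0, KDR was -0.094 with no filter, -0.17 with limma and -1.36 to 0.43 with a replicate left out. Its value of -1.36, without plate 6 of day 20, passed the threshold with the sign changed (edgeR adjusted p = 0.0332). CXCR4 was -0.14 with no filter and -0.36 to 0.24 with a replicate left out. Against day 0, the median of all genes on day 20 shifted by 0.12 with library size alone, 0.18 with limma and -0.26 with no filter, and against day 11 by 0.11 with upper-quartile scaling and -0.15 with no filter.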
